A study of Mus musculus with 4 samples.

Results

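The Hox genes of the mouse lie in 4 clusters, and this account covers the peaks of p63 and of acetylated histone H3 (H3K27ac) that fall within them in salivary gland progenitor cells. Peaks were taken by position: a peak belonged to a cluster when its midpoint lay in a fixed mm9 window, which was chr6:52080001-52240000 for HoxA, chr11:96030001-96250000 for HoxB, chr15:102730001-102890000 for HoxC and chr2:74480001-74640000 for HoxD. These windows held 82 of the 183757 H3K27ac peaks and 2 of the 4130 p63 peaks. They stand for 38 listed genes, 10 in HoxA, 10 in HoxB, 9 in HoxC and 9 in HoxD.

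The cells were primary epithelial progenitors from the salivary gland of adult mice aged 12 weeks, all with wild-type p63 and with no treatment named in the labels. The study made 4 libraries by chromatin immunoprecipitation and sequencing (ChIP-seq), in 4 groups of 1: p63 ChIP with the monoclonal antibody 4A4, H3K27ac ChIP, and an input for each. Each deposited peak list sets 1 ChIP library against its input, so no value below has a replicate, and no test of a difference between conditions is possible. Read numbers are not part of the lists, so depth is unknown, and the identity of the cells could not be checked against marker genes in these files. Intervals on counts of peaks cover counting error only and treat neighbouring peaks as independent.

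Hox genes encode transcription factors with a homeodomain, and they set position along the body axis of the embryo. Their order on the chromosome follows the order of their expression along that axis: genes at the 3′ end of a cluster are used further forward (anterior), and genes at the 5′ end further back (posterior). The foremost part of the head, including the first pharyngeal arch, forms without Hox expression. Where Hox genes are silent, Polycomb proteins place methyl groups on lysine 27 of histone H3, the residue that carries the acetyl group at active promoters and enhancers. p63, a relative of p53, is the factor that maintains basal cells of stratified and glandular epithelia.

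All 38 listed genes were matched by symbol in the RefSeq gene table of GRCm38.p6. That table gave the direction of each cluster and was used for gene order only, since its build differs from that of the peaks. From the anterior to the posterior end HoxA runs from Hoxa2, which patterns the second pharyngeal arch, to Hoxa13, which acts in digits and the genital tubercle. HoxB runs from Hoxb1, a hindbrain gene, to Hoxb13, known from prostate and tail, HoxC from Hoxc4 to Hoxc13, a regulator of hair keratins, and HoxD from Hoxd1 to Hoxd13, a digit gene. The members between these ends are Hoxa3, Hoxa4, Hoxa5, Hoxa6, Hoxa7, Hoxa9, Hoxa10 and Hoxa11 in HoxA, Hoxb2, Hoxb3, Hoxb4, Hoxb5, Hoxb6, Hoxb7, Hoxb8 and Hoxb9 in HoxB, Hoxc5, Hoxc6, Hoxc8, Hoxc9, Hoxc10, Hoxc11 and Hoxc12 in HoxC, and Hoxd3, Hoxd4, Hoxd8, Hoxd9, Hoxd10, Hoxd11 and Hoxd12 in HoxD. Sorted by the lower coordinate of each gene, the order followed the gene numbers except where the annotated span of Hoxb3 encloses Hoxb4 and that of Hoxd3 encloses Hoxd4. In HoxA, on the minus strand, that coordinate is the 3′ end of a gene. By promoter position Hoxa3 is out of order too: its RefSeq promoter (chr6:52213068-52213317) lies posterior to those of Hoxa5 (chr6:52204588-52204837) and Hoxa6 (chr6:52208673-52208922). The next protein-coding genes beyond the listed members and outside the Hox family are Skap2 (anterior) and Evx1 (posterior) for HoxA, Skap1 and Ttll6 for HoxB, Smug1 and Calcoco1 for HoxC, and Mtx2 and Evx2 for HoxD. In GRCm38.p6 the listed genes span 98.5 kb in HoxA, 173.9 kb in HoxB, 115.7 kb in HoxC and 96.9 kb in HoxD. The windows of 160, 220, 160 and 160 kb therefore exceed these spans and hold sequence outside the genes. Because no mm9 annotation was used here, no peak is assigned to a gene.

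The promoters of the members are shown first for their base composition, since H3K27ac peaks are often found at promoters rich in CpG. RefSeq promoters (GRCm38.p6) were at hand for 22 of the 38 genes, in 24 promoters, and the 250 bases before each start were read. Of these promoters 10 were of HoxA, 3 of HoxB, 1 of HoxC and 10 of HoxD, so the values describe mainly HoxA and HoxD. Their median content of G and C was 58.6% and their median number of CpG 12.5, against 52.4% and 6 over 32851 mouse promoters. At least 10 CpG were present in 15 of the 24 (62.5%) and in 37.8% of all promoters. The 4 promoters printed are those at the ends of HoxA and HoxD, the clusters with a promoter at both ends, with every CpG in capitals and all written 5′ to 3′ on the strand of the gene. They lie at chr6:52164832-52165081 (Hoxa2, minus strand), chr6:52260881-52261130 (Hoxa13, minus), chr2:74762730-74762979 (Hoxd1, plus) and chr2:74667975-74668224 (Hoxd13, plus), all in GRCm38.p6 and not in the build of the peaks.
Hoxa2: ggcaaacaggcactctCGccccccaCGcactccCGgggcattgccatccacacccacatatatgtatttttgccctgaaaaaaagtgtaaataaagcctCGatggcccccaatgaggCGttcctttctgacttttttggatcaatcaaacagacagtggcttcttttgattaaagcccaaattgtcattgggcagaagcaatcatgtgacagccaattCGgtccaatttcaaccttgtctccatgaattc
Hoxa13: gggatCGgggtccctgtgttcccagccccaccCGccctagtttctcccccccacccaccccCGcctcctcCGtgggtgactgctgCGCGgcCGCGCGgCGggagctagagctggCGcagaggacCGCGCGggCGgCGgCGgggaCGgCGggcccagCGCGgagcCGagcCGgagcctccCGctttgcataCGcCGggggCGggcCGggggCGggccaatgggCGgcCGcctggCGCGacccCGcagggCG
Hoxd1: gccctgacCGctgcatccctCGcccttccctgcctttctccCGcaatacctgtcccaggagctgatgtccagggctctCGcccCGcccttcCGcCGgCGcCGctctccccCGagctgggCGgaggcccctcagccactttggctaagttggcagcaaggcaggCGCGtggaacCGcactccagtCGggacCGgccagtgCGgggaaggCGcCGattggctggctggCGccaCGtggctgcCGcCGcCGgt
Hoxd13: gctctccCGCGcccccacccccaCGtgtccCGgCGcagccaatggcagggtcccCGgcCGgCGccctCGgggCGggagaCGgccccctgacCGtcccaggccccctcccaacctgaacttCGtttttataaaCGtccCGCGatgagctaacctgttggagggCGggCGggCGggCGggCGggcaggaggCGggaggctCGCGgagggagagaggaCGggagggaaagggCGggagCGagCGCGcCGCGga

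These ends differed in CpG. Hoxa2 had 6 CpG and 46.4% G and C, whereas Hoxa13 had 35 CpG and 80.0%. Hoxd1 had 24 CpG (71.6% G and C) and Hoxd13 had 31 (74.4%). Between the ends the numbers ran from 2, at 1 of the Hoxd11 promoters, to 28 at Hoxa5, so no steady order along HoxA or HoxD was seen. HoxB and HoxC had too few promoters at hand to read an order.

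The p53-family decamer, the unit of the response elements of p53 and p63, was searched on both strands of the same 250 bases. It was present in 3 of the 24 Hox promoters (12.5%), against 7.13% of all 32851 promoters. The matches are printed in capitals with up to 10 bases on either side. They lie at chr6:52245888-52245917 (Hoxa11, minus strand), chr2:74721728-74721747 (Hoxd4, plus) and chr2:74691676-74691705 (Hoxd10, plus) in GRCm38.p6. A match of letters is not a bound site, and no p63 peak fell in the HoxD window.
Hoxa11: aaaaaagccgGGACTAGCTCgcggcttgtc
Hoxd4: GGACAAGCCTaccaaccagc
Hoxd10: ccggccggccAAACAAGCCCcgggagacag

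H3K27ac peaks were present in all 4 clusters, as narrow peaks of which none, as called, reached 500 bases. HoxA held 26 peaks (Poisson 95% interval 17.0 to 38.1), HoxB 25 (16.2 to 36.9), HoxC 19 (11.4 to 29.7) and HoxD 12 (6.20 to 21.0). Per 100 kb this was 16.3 in HoxA, 11.4 in HoxB, 11.9 in HoxC and 7.50 in HoxD, against 7.16 over the whole list. Among the 6 pairs of clusters, the exact 95% interval of the ratio excluded 1 only for HoxA over HoxD (2.17, interval 1.06 to 4.71, not adjusted for the number of pairs). The other neighbours in this order did not differ beyond counting error: HoxA over HoxC was 1.37 (0.729 to 2.62), HoxB over HoxC 0.957 (0.506 to 1.84) and HoxB over HoxD 1.52 (0.734 to 3.31). The lead of HoxA rested in part on closely spaced peaks, since 7 of its gaps were at most 1 kb. With peaks at most 1 kb apart joined, HoxA held 19, HoxB 22, HoxC 19 and HoxD 11. HoxA then equalled HoxC in a window of the same length, and no interval was computed for joined peaks.

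Set among all windows of its own length, tiled along the genome, HoxA ranked highest of the clusters and HoxD lowest. HoxA had more peaks than 89.4% of 16037 windows of 160 kb, HoxC more than 79.9% and HoxD more than 62.9%, where the median window held 8. HoxB had more peaks than 78.7% of 11664 windows of 220 kb, where the median held 11. The bases covered by peaks ranked a little lower: HoxA covered 5406 bases (more than 84.2% of windows), HoxB 5395 (75.1%), HoxC 3706 (74.1%) and HoxD 2476 (62.7%). Among windows with exactly as many peaks, 5.63% covered fewer bases than HoxA, 25.5% than HoxB, 9.74% than HoxC and 47.6% than HoxD. The median of these windows was 6887 bases for HoxA, 6053 for HoxB, 4560 for HoxC and 2501 for HoxD, so HoxD lay close to its own. The windows are ranked here as a description, with no test.

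Single peaks of the clusters were narrow at the upper end of the range. Over the 82 Hox peaks the median was 188.5 bases (quartiles 164 and 229), close to the 191 (quartiles 155 and 260) of the whole list, but none reached 500 bases, against 7.42% of all H3K27ac peaks. In all, 6 of 82 (7.32%) reached 300 bases, against 18.4% of the list. At the low end, 12 of 82 (14.6%) were only 150 bases wide, the minimum of the list, against 21.7% of all peaks. The median was 185.5 bases in HoxA, 179 in HoxB, 189 in HoxC and 195.5 in HoxD, so the cluster medians lay on either side of that of the list.

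**Figure D1:**
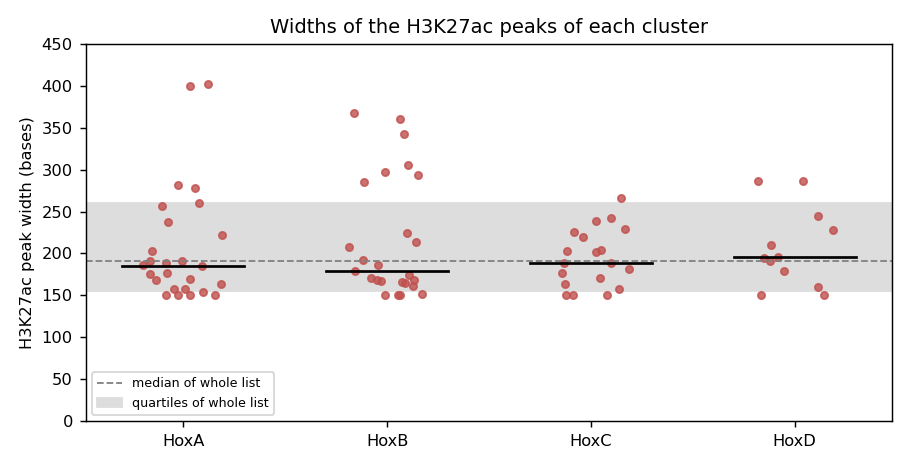
Width in bases of each H3K27ac peak (points) of the HoxA, HoxB, HoxC and HoxD windows, with the median of each cluster as a black line, and the median and quartiles of the whole list as a dashed line and a grey band. The widest Hox peak has 402 bases, and HoxC and HoxD hold none above 286.

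The widest peaks of HoxA stood side by side near its anterior end. They were chr6:52108479-52108880 (402 bases) and chr6:52108938-52109337 (400 bases), and the next, chr6:52150529-52150810, had 282. In HoxB the widest were chr11:96113141-96113508 (368), chr11:96187920-96188279 (360) and chr11:96092207-96092549 (343), spread over the window at 136.7, 61.9 and 157.6 kb from its anterior end. HoxC had none above 266 bases, and its widest were chr15:102770038-102770303 (266), chr15:102807483-102807724 (242) and chr15:102827336-102827574 (239). In HoxD they were chr2:74489070-74489355 (286), chr2:74534944-74535229 (286) and chr2:74531436-74531680 (245).

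The order of rows in the H3K27ac list gives one more description of these peaks. The list is not in genome order, and its last 78015 rows (42.5% of all) run once through the chromosomes in text order. No ranking value stands in the file. Of the 82 Hox peaks, 38 (46.3%) were in this last block: 13 of 26 in HoxA, 11 of 25 in HoxB, 7 of 19 in HoxC and 7 of 12 in HoxD. The 2 widest HoxA peaks stood far forward, after 1.04% and 4.97% of the rows.

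In steps of 10 kb, 46 of the 70 steps of the 4 clusters (65.7%) held at least 1 H3K27ac peak, against 39.9% of the 256781 steps of the genome and 84 of 160 steps (52.5%) of the flanks. The share was 11 of 16 steps in HoxA and in HoxC, 15 of 22 in HoxB and 9 of 16 in HoxD. An occupied Hox step had a median of 343 covered bases, against 236.5 in the flanks and 248 over the genome. The highest Hox step had 1234, and 7.42% of the occupied steps of the genome had more.

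Read from the anterior end, HoxA began with 20 kb without a peak, followed by its richest step. The step from 20 to 30 kb held 4 peaks that covered 1234 bases, more than 97.0% of the steps of the genome. After it came 532 bases (30 to 40 kb), 353 (40 to 50), 361 (50 to 60), 158 (60 to 70) and 586 (70 to 80). The step from 80 to 90 kb was empty. A second rise followed with 592 bases (90 to 100 kb) and 635 (100 to 110), and 398 at 110 to 120. Here 5 peaks lay at most 1 kb apart within 1873 bases, at chr6:52179199-52181071, the longest such group in the 4 clusters. Beyond 120 kb only 387 bases (130 to 140 kb) and 170 (140 to 150) were covered.

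HoxB was occupied along its anterior side and thinned out behind. Its steps from 0 to 40 kb covered 483, 213, 473 and 305 bases, and after an empty step those from 50 to 110 kb covered 328, 694, 285, 560, 150 and 343. The step from 60 to 70 kb, with 3 peaks, was the highest, above 93.8% of the steps of the genome. The longest gap between neighbouring peaks was 27.8 kb, from 107.3 to 135.1 kb. Past it the step from 130 to 140 kb covered 686 bases, the steps from 150 to 190 kb held 1 peak each (343, 208, 174 and 150 bases), and the last 30 kb held none.

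HoxC had its peaks spread with no dense part. No pair of its 19 peaks lay within 1 kb, and its highest step, from 90 to 100 kb, covered 485 bases with 3 peaks. The run from 60 to 130 kb was occupied without a break, with 468, 188, 242, 485, 421, 416 and 226 bases. The anterior part was sparser, with 385 bases (10 to 20 kb), 346 (20 to 30) and 203 (40 to 50), and the longest gap between neighbouring peaks, 18.7 kb, lay there.

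HoxD had the fewest occupied steps. Its highest step, from 100 to 110 kb, held 3 peaks with 710 bases, and the step from 60 to 70 kb held 2 peaks with 401. Each of the other 7 occupied steps held 1 peak, of 150 to 286 bases. The longest gap between neighbouring peaks, 27.8 kb, ran from 33.7 to 61.5 kb, and the median distance between neighbours was 12.1 kb, against 1.82 kb in HoxA, 6.01 in HoxB and 6.05 in HoxC.

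**Figure D2:**
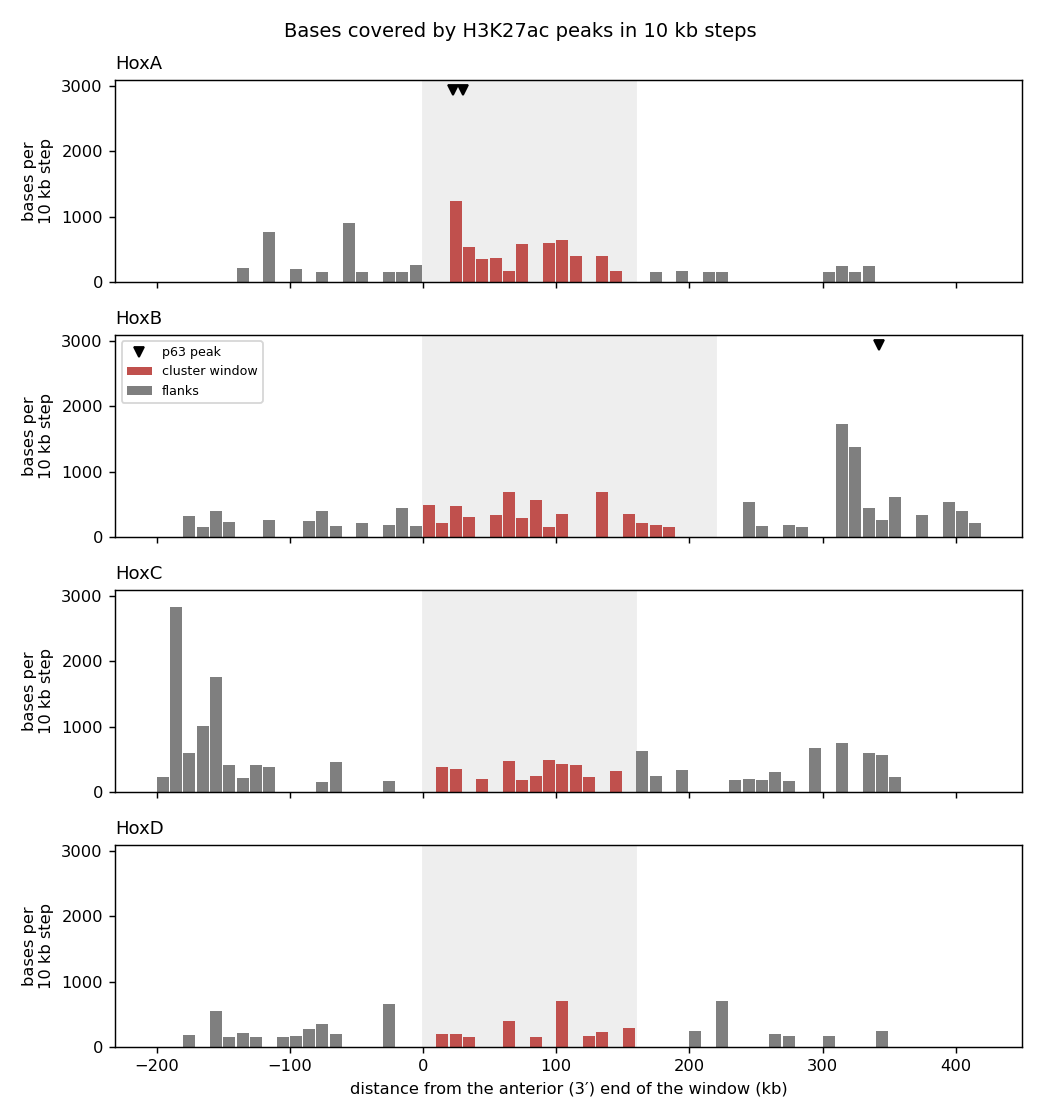
Bases covered by H3K27ac peaks in each 10 kb step (bars), by distance in kb from the anterior end of each window, with the cluster in red on grey and 200 kb of flank on either side in grey. Triangles mark p63 peaks: 2 at the 1234-base step of HoxA and 1 in the posterior flank of HoxB.

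Cut in the middle, the clusters did not share a direction. The anterior side held 15 of 26 peaks in HoxA (57.7%, exact binomial 95% interval 36.9 to 76.7%) and 18 of 25 in HoxB (72.0%, interval 50.6 to 87.9%). It held 8 of 19 in HoxC (42.1%, interval 20.3 to 66.5%) and 5 of 12 in HoxD (41.7%, interval 15.2 to 72.3%). By covered bases the anterior share was 59.6% in HoxA, 71.1% in HoxB, 42.9% in HoxC and 38.1% in HoxD. Only the interval of HoxB lay above an even split, and its lower bound was close to it. The cut divides each window by length and not by genes, which are not evenly spaced. In GRCm38.p6 the HoxB promoters from Hoxb1 to Hoxb8 start at chr11:96365508 and chr11:96281655, within a gene span of 173.9 kb. Whether the share follows the density of genes was not tested. For the other clusters an uneven split was not detectable with so few peaks. With the first 91878 rows the share by covered bases fell to 25.8% in HoxC and 18.0% in HoxD. In HoxC it went to 57.0% when the outer 40 kb at each end alone were compared.

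The flanks of 200 kb on either side gave each cluster its neighbourhood, and only for HoxA did the exact intervals of the density ratio exclude 1 against each of them. HoxA held 16.3 peaks per 100 kb, against 7 in its anterior and 4 in its posterior flank. The density was 2.96 times that of both flanks together (exact 95% interval 1.61 to 5.47), 2.32 times the anterior flank (1.17 to 4.81) and 4.06 times the posterior one (1.79 to 10.4). The covered share was 3.38% in the cluster and 1.08% in the flanks, a ratio of 3.14, which became 4.78 with the first 91878 rows of the list.

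HoxB, HoxC and HoxD did not differ from their flanks beyond counting error. The density ratio was 1.20 for HoxB (interval 0.692 to 2.03), 0.880 for HoxC (0.492 to 1.51) and 1.5 for HoxD (0.669 to 3.22). In covered bases the ratio was 0.980 for HoxB, 0.678 for HoxC and 1.30 for HoxD. The first 2 of these turned with the choice of flank: with 100 kb on either side they became 1.08 and 1.82. In HoxC the far 100 kb of the anterior flank held 24 peaks with 7853 covered bases, and the near 100 kb held 5 peaks with 780. HoxD had 14 peaks in its anterior and 6 in its posterior flank.

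The single peaks of 500 bases or more in these regions lay outside the clusters: 8 of the 134 flank peaks (5.97%) and 0 of the 82 cluster peaks. The widest was chr15:103070913-103072073 (1161 bases) in the anterior flank of HoxC, 180.9 kb from the window. In the posterior flank of HoxB it was chr11:95925642-95926654 (1013 bases), and in HoxD chr2:74416258-74416955 (698) in the posterior and chr2:74663889-74664400 (512) in the anterior flank. In the remaining flanks the widest had 342 bases (chr6:52026784-52027125, HoxA anterior), 242 (chr6:52418310-52418551, HoxA posterior), 395 (chr11:96409003-96409397, HoxB anterior) and 327 (chr15:102693309-102693635, HoxC posterior). These widths are of single peaks as called. With peaks at most 1 kb apart joined, the longest group of HoxA spanned 1873 bases, of which 1063 were covered. Spans of joined peaks were not computed for the flanks.

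**Figure D3:**
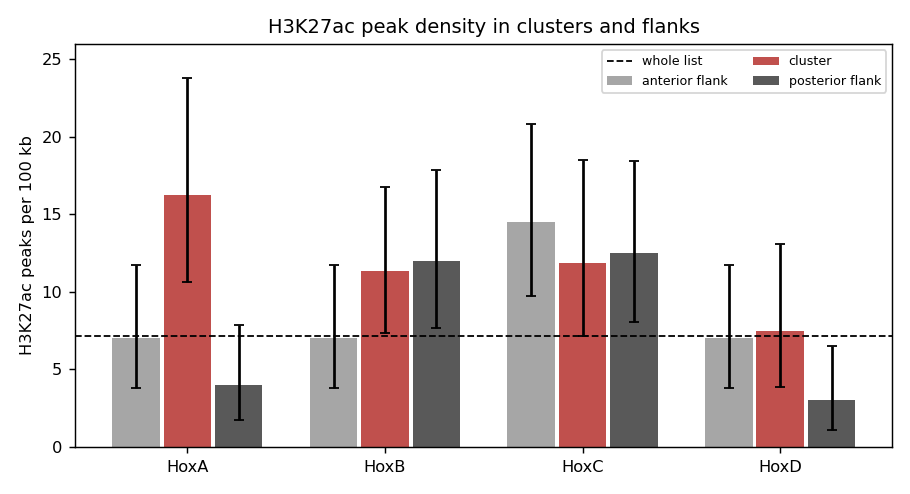
H3K27ac peaks per 100 kb (bars) in the anterior flank, the window and the posterior flank of each Hox cluster, with exact Poisson 95% intervals for counting error, and the 7.16 of the whole list as a dashed line. HoxA at 16.3 and HoxD at 7.50 are higher than both of their flanks, and the intervals of each cluster overlap those of at least 1 of its flanks.

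p63 peaks were found in HoxA alone, and both stood near its anterior end. The first was chr6:52102368-52102555 (188 bases) and the second chr6:52109528-52109707 (180 bases), close to the 181-base median of all p63 peaks. Their midpoints lay 22.5 and 29.6 kb from the anterior end of the window, in the 10 kb step that also covered the most H3K27ac bases of the 4 clusters. That step was 1 of 70 Hox steps with p63, against 1.53% of the steps of the genome. HoxB, HoxC and HoxD held 0 p63 peaks. By an approximate 1-sided limit of 3 counts, this allows up to 13.6 per Mb in HoxB and 18.8 per Mb in HoxC and HoxD. The exact Poisson 95% interval for 0 peaks in a window is wider and reaches 3.69 counts. The 4 windows together held 2.86 p63 peaks per Mb (Poisson 95% interval 0.346 to 10.3), and the 1.61 per Mb of the genome lay inside that interval. Of all genome windows, 18.6% of those of 160 kb and 23.9% of those of 220 kb held at least 1 p63 peak.

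Neither HoxA p63 peak shared a base with H3K27ac, which 34.8% of all p63 peaks did, but both lay within 1 kb of it, like 68.4% of all. The second sat between acetylated peaks: 190 bases past the 400-base peak chr6:52108938-52109337 and 808 bases before the 191-base peak chr6:52110516-52110706. This arrangement, with H3K27ac within 1 kb on both sides and no shared base, was found at 11.4% of all p63 peaks. The first had acetylation on 1 side within 1 kb, at 528 bases (chr6:52101583-52101839, 257 bases), and on the other side at 5923 bases.

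**Figure D4:**
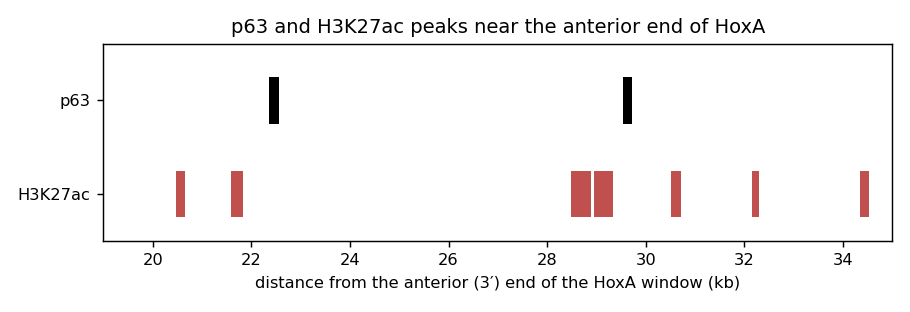
Peaks of p63 (black, top) and H3K27ac (red, bottom), drawn to scale by distance in kb from the anterior end of the HoxA window, between 19 and 35 kb. The p63 peak at 29.6 kb stands between the pair of wide H3K27ac peaks and a narrower one, and that at 22.5 kb beside a single one.

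Around the clusters p63 peaks were few. The 1600 kb of flanks held 1 p63 peak, or 0.625 per Mb (interval 0.0158 to 3.48). It was chr11:95907436-95907574 (139 bases), which shared bases with an H3K27ac peak, 122.4 kb beyond the posterior end of the HoxB window. On the anterior side of HoxB the nearest was chr11:96887095-96887214, 637.1 kb away. For HoxC the nearest were chr15:103171365-103171522 (281.4 kb, anterior) and chr15:101846429-101846644 (883.4 kb, posterior). For HoxD they were chr2:75450989-75451191 (811 kb, anterior) and chr2:72833727-72833929 (1646 kb, posterior). Outside HoxA the next p63 peak was 372.5 kb beyond the anterior end, at chr6:51707318-51707474, and 2459 kb beyond the posterior end, at chr6:54699217-54699486. Each of the 7 nearest peaks outside the flanks either overlapped H3K27ac or lay at most 109 bases from it, the largest of their own distances. Over all p63 peaks 34.8% shared a base with H3K27ac and 68.4% lay within 1 kb of it. No share over all p63 peaks was computed at 109 bases, so this is a description only.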

How the data were processed

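The data are 2 peak lists of 3 columns (chromosome, start, end), other than counts or signal, as deposited by the authors: p63 (4A4) ChIP against input and H3K27ac ChIP against input, in the BED form. Per the submitters' processing notes the tools included Bowtie 1.1.1 and MACS2 2.1.0 and the build was mm9. The sources used here do not give their settings or the peak threshold. Starts are printed counted from 1. No H3K27ac row was repeated and 0 neighbouring peaks overlapped.

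Peaks were assigned by midpoint, and covered bases were cut at window edges. Genome steps of 10 kb spanned each of 20 chromosomes between its outermost peaks. Peaks named are every p63 peak in a window, the nearest outside, the 3 widest H3K27ac peaks and the richest step of each cluster, and the widest peak of each flank. Intervals are exact (Poisson, binomial, or conditional for a ratio), apart from the approximate limit of 3 counts for windows with 0 p63 peaks. The counting steps were checked on planted peaks. The members and lists were chosen with earlier results of these data known, and the promoter features, list blocks and genome ranks were added afterwards. Alternatives changed the assignment, the list, the flanks, the cut between anterior and posterior, and the step. Analyses used Python 3.11.15, numpy 2.4.6 and scipy 1.17.1.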

Additional observations from a re-analysis of the deposited data

How the results depend on the processing

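Of 102 alternatives over 21 values, 81 kept the direction and stayed within a set limit. Some of these could not move, such as a stricter p63 list where a cluster held 0 p63 peaks. Assignment by any shared base or of whole peaks by midpoint returned the same value each time. The limit was 1.5 times for numbers and shares of steps. For the covered share over flanks it was the relative width of the counting interval of the density ratio. For the anterior share it was the binomial interval of the peak split, in percentage points. Both intervals are wide, and these changes fell within them. With the first 91878 rows the covered share of HoxA over its flanks went from 3.14 to 4.78 and the anterior share of HoxC from 42.9 to 25.8%. The anterior share of HoxD went from 38.1 to 18.0% under both cuts by row order. The lists cut by row order lowered the number of peaks in all clusters, and a shorter list cannot raise it. The first 91878 rows are 50% of the list and held 40 of the 82 Hox peaks (48.8%). The first 91878 rows left 10 peaks in HoxA, 14 in HoxB, 11 in HoxC and 5 in HoxD, with occupied steps at 43.8% in HoxA and 18.8% in HoxD. That limit falls inside a block of rows in text order of chromosomes and so treats chromosomes unequally. Rows before the last block, an alternative chosen after seeing the data, left 13, 14, 12 and 5 peaks, with 18.8% of steps occupied in HoxD. Steps of 5 kb gave 43.8% in HoxA, 43.2% in HoxB and 34.4% in HoxD, and steps of 20 kb 87.5% in HoxD. The covered share over flanks turned in HoxB, from 0.980 to 1.08 with flanks of 100 kb and to 1.001 with the first 91878 rows, and in HoxC to 1.82 with flanks of 100 kb. The anterior share turned in HoxC, to 57.0% with the outer 40 kb at each end alone. The p63 peaks above the median width of 181 bases kept 1 of the 2 in HoxA. With H3K27ac within 1 kb in place of a shared base, 2 of the 2 p63 peaks counted, in place of 0. No alternative turned the direction of HoxA over its flanks or of the anterior share in HoxA, HoxB or HoxD. No paired analysis was possible because there was 1 library per group. Without the depth, a step without a peak is not shown to lack acetylation or p63.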
